A study of Mus musculus with 30 samples.

Results

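MAP kinase phosphatases and *Spry4* are 10 genes of negative feedback on MAP kinase signaling, *Dusp1*, *Dusp2*, *Dusp4*, *Dusp5*, *Dusp6*, *Dusp8*, *Dusp10*, *Dusp14*, *Dusp16* and *Spry4*. They were taken from a list of names with no threshold on a value, and they are 10 of the 28586 genes in the count tables. Their mRNA was followed in the muscularis externa (*ME*) of the mouse small bowel, the muscle layers with the enteric nervous system between them, after intestinal manipulation (IM), an abdominal surgery in which the bowel is handled and the *ME* becomes inflamed. Each library is either mRNA bound to HA-tagged ribosomes of glial cells (*RiboTag*) or total *ME* RNA. The question of the design is which transcripts change in glia and in the whole *ME* when mice are killed 3 h (IM3h), 24 h (IM24h) or 72 h (IM72h) after IM.

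All mice carried the *RiboTag* allele B6N.129 Rpl22tm1.1Psam/J, in which Cre recombination adds HA to RPL22, a protein of the ribosome, and they were males of 10 to 12 weeks. The labels cross it with B6 Tg(Sox10-icre/ERT2)388Wdr/J, a tamoxifen-inducible Cre driven by *Sox10*, for every *RiboTag* library and for *ME* at IM24h and IM72h. For naïve *ME* and *ME* at IM3h they give B6.Cg-Tg73.12Mvs/J(Gfap-cre), so in *ME* the line cannot be told apart from the time at IM24h and IM72h, and between naïve *RiboTag* and *ME* it cannot be told apart from the fraction. Naïve mice had no surgery. *RiboTag* was measured in 3 naïve libraries and in 4 at each time point, and *ME* in 3 libraries each for naïve mice and IM3h and 4 each for IM24h and IM72h.

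MAP kinases such as ERK, JNK and p38 are switched on when a threonine and a tyrosine of their activation loop are phosphorylated, and dual-specificity phosphatases remove both phosphates. *Dusp1*, *Dusp2*, *Dusp4* and *Dusp5* encode nuclear phosphatases that are made within minutes to hours of a stimulus, *Dusp6* a cytoplasmic phosphatase of ERK, and *Dusp8*, *Dusp10* and *Dusp16* phosphatases that prefer JNK and p38. *Dusp14* encodes a small phosphatase without the docking domain of the classical members, and *Spry4* a Sprouty protein that dampens RAS-ERK signaling downstream of receptor tyrosine kinases.

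The RefSeq promoter windows were searched for the binding motifs of factors that act in such feedback, and 4 of the windows with a match are shown. These are 3 of genes that rose at IM3h (*Dusp1*, *Dusp5* and *Dusp14*) and that of *Dusp8*, which did not pass the test at IM3h. The window of *Dusp16*, which did not pass either, holds 1 match and is not shown. Each line is the 250 bases before the RefSeq start of the gene in GRCm38.p6, read 5′ to 3′ on the strand of the gene, with motif matches in capitals.
Dusp1, chr17:26508473-26508722, minus strand: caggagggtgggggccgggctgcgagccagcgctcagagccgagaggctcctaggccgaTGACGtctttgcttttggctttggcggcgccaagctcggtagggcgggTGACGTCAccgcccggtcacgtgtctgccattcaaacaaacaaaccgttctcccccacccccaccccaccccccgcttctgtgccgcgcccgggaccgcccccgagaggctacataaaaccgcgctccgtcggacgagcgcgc
Dusp5, chr19:53528895-53529144, plus strand: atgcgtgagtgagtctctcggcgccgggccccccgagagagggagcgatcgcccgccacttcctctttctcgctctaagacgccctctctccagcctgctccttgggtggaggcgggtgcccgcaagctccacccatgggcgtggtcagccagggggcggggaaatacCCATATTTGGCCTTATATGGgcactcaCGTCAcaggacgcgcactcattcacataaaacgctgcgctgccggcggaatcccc
Dusp8, chr7:142095285-142095534, minus strand: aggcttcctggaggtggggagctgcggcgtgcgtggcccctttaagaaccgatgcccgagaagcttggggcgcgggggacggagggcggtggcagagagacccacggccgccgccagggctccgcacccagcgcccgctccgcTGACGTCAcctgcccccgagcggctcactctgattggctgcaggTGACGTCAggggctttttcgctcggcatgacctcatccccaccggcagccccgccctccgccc
Dusp14, chr11:84068358-84068607, minus strand: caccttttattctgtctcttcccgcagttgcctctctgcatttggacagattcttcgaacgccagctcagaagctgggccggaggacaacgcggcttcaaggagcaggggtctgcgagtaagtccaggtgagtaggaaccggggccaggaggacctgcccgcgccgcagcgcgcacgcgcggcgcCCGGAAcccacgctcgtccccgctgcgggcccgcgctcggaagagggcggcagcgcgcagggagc
Windows were at hand for 8 of the 10 genes, and *Dusp4* and *Spry4* were not searched. TGACG, the core of the cAMP response element, was searched on both strands, where the palindrome TGACGTCA gives a pair of overlapping matches. It was present in 4 of 8 windows, those of *Dusp1*, *Dusp5*, *Dusp8* and *Dusp16*, and in 17.8% of 32851 promoter windows of the same length. The CArG box, the motif of serum response factor, was present only in the *Dusp5* window of the 8, with 2 matches end to end in the first run of capitals, and in 1.47% of all windows. CCGGAA, an ETS motif, was present only in the *Dusp14* window of the 8 and in 12% of all windows. TGANTCA, the AP-1 motif, was in 0 of 8 windows and in 6.75% of all, and the kappa B motif in 0 of 8 and in 7.25%. The *Dusp8* window held the most TGACG matches of the 8, 4. A match is a description of these letters and not of binding.

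Library totals ranged from 3010306 to 7899493 counts in *RiboTag* and from 6603170 to 12866062 in *ME*. The transcript AY036118, which lies in an rRNA gene, took 2.68% to 14.0% of counts in naïve *RiboTag* libraries, 22.2% to 59.2% at IM24h and 58.0% to 80.1% at IM72h. In *ME* it took 16.1% to 33.5% in naïve and 24.1% to 25.2% in IM3h libraries, and 1.33% to 6.501% at IM24h and 2.34% to 3.69% at IM72h. With it left out of the fits, *Dusp2* in *ME* was called lower from IM3h to IM24h (adjusted p = 0.0476, edgeR's quasi-likelihood test). The other *ME* calls of the 10 genes were unchanged by this. What its share stands for in the *ME* libraries was not tested. In *RiboTag* 8644 to 11416 genes were detected at IM72h against 17162 to 19331 in naïve libraries. Values at these later *RiboTag* times therefore rest on few counts, and 3 counts in a library, taken as the floor below which a level is not resolved, correspond on average to 0.359 CPM (counts of all libraries brought to a common size) in naïve *RiboTag* libraries and to 1.87 CPM at IM72h. The glial markers fit the *RiboTag* label in naïve mice, where all 10 were higher than in *ME* and their sum was 1740 to 2160 CPM against 162 to 188 CPM. *Sox10* itself was at 486 to 1040 CPM in naïve *RiboTag* mice. It was at 277 to 405 CPM in the IM3h libraries, 38.0 to 420 CPM in those of IM24h and 0 to 11.9 CPM in those of IM72h, so at IM72h the defining marker of the labelled cell was nearly absent. At IM3h the glial markers summed to 1370 to 2920 CPM in *RiboTag*. Smooth muscle markers in *RiboTag* summed to 5220 to 8070 CPM in naïve mice and to 2100 to 5430 CPM at IM3h, and macrophage markers to 102 to 210 CPM and 75.4 to 154 CPM. Neuron markers summed to 699 to 1460 CPM in naïve *RiboTag* and to 869 to 1830 CPM at IM3h. In *ME* they summed to 599 to 611 CPM and to 484 to 540 CPM. Markers of mesothelium summed to 112 to 290 CPM in naïve *RiboTag* and to 10.8 to 73.2 CPM at IM3h, with 4 of 5 tested lower and 0 higher, and those of fibroblasts to 1040 to 1310 CPM and 397 to 586 CPM, with 4 of 8 lower and 0 higher. Of these mesothelium genes, 1 passed the filter on low counts only through the naïve libraries. Of the fibroblast genes, 1 passed it only through those of IM3h. The part of other cells in the results was not tested.

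**Figure D1:**
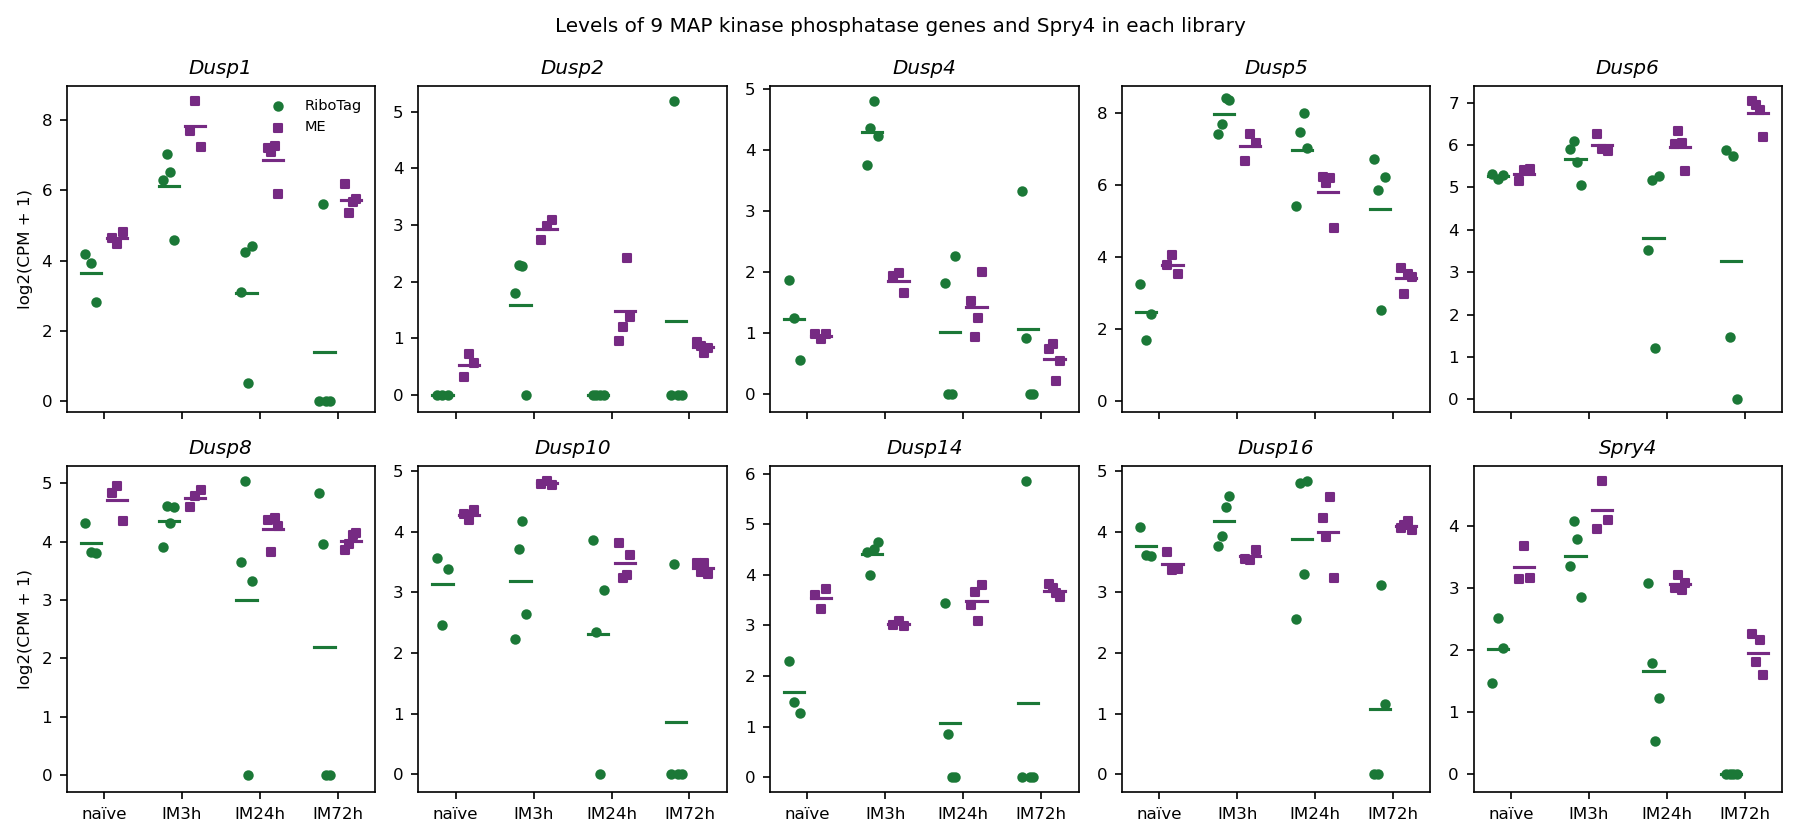
Levels of the 10 genes in every library, as log2(CPM + 1) on the y axis, by time on the x axis, with green circles for *RiboTag*, purple squares for total *ME* and bars for means of the log values in a group. The *Dusp5* circles at IM3h (169 to 338 CPM) lie far above those of naïve mice (2.26 to 8.51 CPM), and *Dusp14* is higher at IM3h in the circles and lower in the squares.

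In naïve mice *Dusp6* had the highest mean level of the 10 genes in both fractions, and *Dusp14* was lower in *RiboTag* than in *ME*. Levels are TMM-scaled CPM of 3′ end libraries, in which a transcript gives reads from its end whatever its length. In naïve *RiboTag* libraries the mean levels ran from *Dusp6*, 37.4 ± 1.68 CPM (SD, n = 3), over *Dusp8* with 15.0 ± 3.38, *Dusp16* with 12.8 ± 2.69, *Dusp1* with 12.5 ± 5.78, *Dusp10* with 8.27 ± 3.31, *Dusp5* with 5.05 ± 3.18, *Spry4* with 3.20 ± 1.49, *Dusp14* with 2.39 ± 1.35 and *Dusp4* with 1.499 ± 1.10 down to *Dusp2*, which was at 0 in all 3 libraries. Apart from *Dusp6* above *Dusp8*, neighbours in this order overlapped in their spread or, for *Dusp2*, met the floor. In naïve *ME* the genes ran from *Dusp6* with 39.3 ± 4.18 CPM (SD, n = 3) to *Dusp2* with 0.457 ± 0.203 CPM.
*Dusp14* was at 3.94, 1.81 and 1.42 CPM in naïve *RiboTag* libraries 1 to 3 and at 11.1, 9.04 and 12.2 CPM in the naïve *ME* libraries. All *RiboTag* libraries lay below all *ME* libraries. It was the 1 of 8 tested genes that was lower in *RiboTag* (log2 difference −1.82 ± 0.52 (SE), adjusted p = 0.0315, edgeR's quasi-likelihood test) and 0 were higher, where 12.7% of all tested genes were lower and 13.4% higher. The call was lost without *RiboTag* library 3 (adjusted p = 0.0553), *ME* library 1 (0.122), *ME* library 2 (0.0739) or *ME* library 3 (0.142), and with library totals (0.133). *Spry4* was at 1.78, 4.74 and 3.08 CPM in *RiboTag* and at 7.86, 11.8 and 7.99 CPM in *ME*, without overlap, but its difference of −1.16 did not pass (adjusted p = 0.122). Without *RiboTag* library 2 it passed (0.0467).

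At IM3h the inducible nuclear phosphatases *Dusp1*, *Dusp4* and *Dusp5* and the small phosphatase *Dusp14* rose in *RiboTag*, by 6.69-fold to 53.6-fold. *Dusp6*, *Dusp8*, *Dusp10* and *Dusp16* did not pass the test, nor did *Dusp2* and *Spry4*, which were near its threshold. All 10 genes passed the filter on low counts, 4 rose and 0 fell, where 8.86% of the 16053 genes tested rose and 4.44% fell. An unadjusted p under 0.05 was reached by 6. The median log2 fold change of the 10 was 2.29, against −0.04 over all genes tested. *Dusp2* and *Dusp4* passed the filter only through the IM3h libraries, since fewer than 3 naïve libraries reached its limit, and these counts and the median are a description of the genes tested. *Dusp2*, *Dusp4*, *Dusp5* and *Dusp14* stand on a gliosis list that the study chose on these same libraries, so their rise here is not independent evidence.
*Dusp5*, a nuclear phosphatase specific for ERK that lies on chromosome 19 from 53529109 to 53542431 (mm10, plus strand), had 8.51, 2.26 and 4.39 CPM in naïve libraries 1 to 3 and 169, 205, 338 and 326 CPM at IM3h. Every IM3h library was far above every naïve one. The log2 fold change was 5.74 ± 0.50 (SE), or 53.6-fold, with an adjusted p of 4.36e-05. Its exons overlap the gene AC137853.2 on the other strand, and as the strand setting of the counting is not given in the sources used here, their reads cannot be told apart. The call held without any single library and under all 7 other settings.
*Dusp4*, a nuclear phosphatase of ERK and JNK on chromosome 8 from 34807297 to 34819894, had 2.67, 1.36 and 0.474 CPM in naïve libraries and 12.5, 19.6, 27.1 and 17.9 CPM at IM3h. The groups were well apart, and the rise was 13.3-fold (log2 3.74 ± 0.62, SE, adjusted p = 0.0023).
*Dusp14*, on chromosome 11 from 84048041 to 84069261, had 3.94, 1.81 and 1.42 CPM in naïve libraries and 20.9, 15.0, 21.8 and 24.1 CPM at IM3h, 8.86-fold higher (log2 3.15 ± 0.50, SE, adjusted p = 0.00183). The 4 IM3h values were close to each other and all above the naïve values.
*Dusp1*, an early response gene whose product acts on p38, JNK and ERK, lies on chromosome 17 from 26505590 to 26562128, where its exons overlap *Ergic1* on the other strand. It had 17.2, 14.4 and 6.05 CPM in naïve libraries and 77.3, 130.2, 91.0 and 23.1 CPM at IM3h. IM3h library 4 was the lowest and came near to naïve library 1, but the groups did not overlap. The rise was 6.69-fold (log2 2.74 ± 0.55, SE, adjusted p = 0.00681).
The calls of *Dusp1*, *Dusp4* and *Dusp14* held without any single library. They were lost when the 4 *RiboTag* groups were fitted together and so shared 1 spread with the sparse IM24h and IM72h libraries (adjusted p = 1.0, 0.975 and 1.0), and that of *Dusp1* also when libraries were scaled by 3 reference genes (0.0744).

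*Dusp2* and *Spry4* were near the threshold in *RiboTag* at IM3h, and both hung on 1 library. *Dusp2*, a nuclear phosphatase best known from activated immune cells, was at 0 in the 3 naïve libraries and at 2.47, 3.92, 3.84 and 0 CPM at IM3h, at least 7.13-fold higher against the floor of 3 counts per library. IM3h library 4 was at 0 like the naïve libraries (adjusted p = 0.0708), and without it the gene passed (0.013). *Spry4* was at 1.78, 4.74 and 3.08 CPM in naïve libraries and at 9.20, 15.95, 12.9 and 6.26 CPM at IM3h. The groups did not overlap, library 4 was again the lowest at IM3h, and the log2 fold change of 1.85 ± 0.59 (SE) had an adjusted p of 0.0574, or 0.0201 without library 4. DESeq2 called both genes higher (adjusted p = 0.00733 and 0.0157). Of the 10 genes, 5 did not overlap between the groups and were higher, *Dusp1*, *Dusp4*, *Dusp5*, *Dusp14* and *Spry4*, and 14.3% of all tested genes were likewise higher without overlap.
The remaining 4 genes had small log2 fold changes in *RiboTag* at IM3h, 0.52 for *Dusp6* (adjusted p = 0.287), 0.46 for *Dusp8* (0.465), 0.27 for *Dusp10* (0.834) and 0.51 for *Dusp16* (0.447). Their IM3h and naïve libraries overlapped, for *Dusp6* with 32.3 to 66.8 CPM against 35.5 to 38.6 CPM.

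In *ME* at IM3h the inducible nuclear phosphatases *Dusp1*, *Dusp2*, *Dusp4* and *Dusp5* rose, and *Dusp6*, *Dusp10* and *Spry4* rose by smaller factors. Of the 10 genes, 7 rose and 0 fell, where 19.3% of 15333 tested genes rose and 13.4% fell, and the median log2 fold change was 0.92 against 0.00 over all genes. As in *RiboTag*, *Dusp2* and *Dusp4* passed the filter only through the IM3h libraries. The 7 were also those whose libraries were higher without overlap, as were 23.4% of all tested genes. Naïve and IM3h *ME* libraries have the same line in their labels.
*Dusp5* was at 12.8, 15.5 and 10.53 CPM in naïve *ME* libraries 1 to 3 and at 99.6, 168 and 141 CPM at IM3h, 11-fold higher (log2 3.46 ± 0.21, SE, adjusted p = 2.15e-06). *Dusp1* was at 24.2, 21.1 and 27.1 CPM and at 205, 369 and 148.5 CPM, with a log2 fold change of 3.36 ± 0.30 (SE) and an adjusted p of 2.5e-05. *Dusp2* was at 0.242, 0.646 and 0.484 CPM and at 5.64, 6.94 and 7.48 CPM (log2 3.94 ± 0.46, SE, adjusted p = 0.000135). For these 3 genes the groups were several-fold apart, although naïve *Dusp2* lay near the floor.
*Dusp4* was at 0.967, 0.861 and 0.969 CPM in naïve *ME* and at 2.82, 2.95 and 2.16 CPM at IM3h (log2 1.53 ± 0.44, SE, adjusted p = 0.0244). The libraries did not overlap, but the call was lost without any library except IM3h library 3 (adjusted p = 0.0624 to 0.0975). *Spry4* was at 7.86, 11.8 and 7.99 CPM and at 14.5, 25.5 and 16.1 CPM (log2 1.09 ± 0.27, SE, adjusted p = 0.0112), and it was lost without IM3h library 2 (0.057), naïve library 1 (0.0567) or naïve library 3 (0.0578). *Dusp6* rose by 0.75 ± 0.16 on the log2 scale (SE, adjusted p = 0.00497), from 34.5, 41.3 and 42.0 CPM to 76.0, 58.7 and 56.9 CPM. *Dusp10* rose by 0.58 ± 0.14 (SE, adjusted p = 0.0107), from 18.6, 17.2 and 19.6 CPM to 26.6, 27.6 and 26.3 CPM, and of the single libraries left out only naïve library 1 ended the call (0.053). In all 4 genes no IM3h library overlapped a naïve one. With scaling by library totals or by reference genes, *Dusp4* (adjusted p = 0.0624 and 0.0638), *Dusp6* (0.0543 and 0.106) and *Dusp10* (0.223 and 0.397) did not pass, whereas *Dusp14* passed as lower (0.039 and 0.00933). *Dusp4* was also lost with DESeq2 (0.0753), without the filter (0.0568) and with all 4 groups in 1 fit (0.122), and *Dusp10* with the latter (0.0576).
*Dusp14* had 11.1, 9.04 and 12.2 CPM in naïve *ME* and 7.05, 7.53 and 6.98 CPM at IM3h. All IM3h libraries were below the naïve ones, as in 24.8% of all genes, and the log2 fold change of −0.55 ± 0.22 (SE) did not pass with TMM (adjusted p = 0.0845). *Dusp8* and *Dusp16* had log2 fold changes of 0.08 and 0.17 with overlapping libraries. In total RNA of a tissue, fewer cells of a type and less RNA per cell cannot be told apart. Neutrophil markers summed to 4.11 to 7.14 CPM in naïve *ME* and to 26.1 to 36.6 CPM at IM3h, and macrophage markers to 237 to 271 CPM and 233 to 260 CPM. Mesothelium markers summed to 136 to 169 CPM and to 15.8 to 64.1 CPM, with 5 of 6 lower. Of these 6, 5 passed the filter only through the naïve libraries, so this count is a description. Fibroblast markers summed to 2880 to 3030 CPM and to 1420 to 1650 CPM, with 5 of 7 tested lower. Smooth muscle markers summed to 23100 to 24700 CPM and to 17100 to 20400 CPM. Those of interstitial cells of Cajal summed to 442 to 460 CPM and to 320 to 358 CPM. Those of proliferating cells summed to 25.2 to 40.5 CPM and to 65.0 to 75.6 CPM. Those of endothelium summed to 37.2 to 41.9 CPM and to 45.7 to 54.7 CPM. The part of these cells was not tested.

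**Figure D2:**
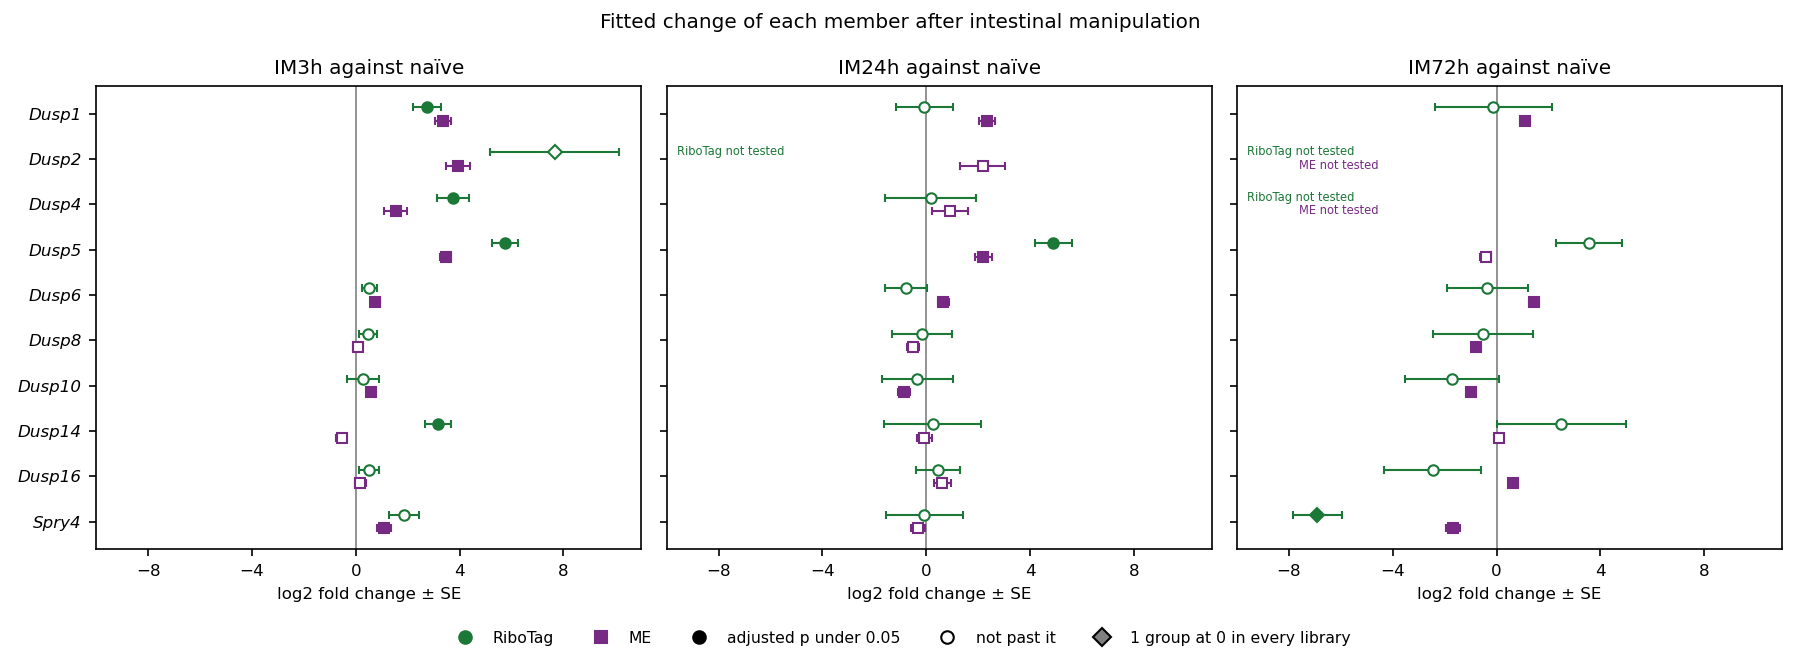
Log2 fold change against naïve mice (x axis, bars ± SE) of each gene (y axis) in panels for IM3h, IM24h and IM72h, green circles for *RiboTag* and purple squares for *ME*, filled where the adjusted p was under 0.05 and open where it was not, with diamonds where a group was at 0 in every library. *Dusp5* has the highest filled *RiboTag* point at IM3h, 5.74, and *Dusp1*, *Dusp6* and *Dusp10* in *ME* are filled at all 3 times.

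*Dusp14* and *Dusp5* changed differently in the fractions at IM3h. The interaction of fraction and treatment passed the test for 2 of 10 genes, where it passed for 1.66% of the 17617 genes tested. The change of *Dusp14* in *RiboTag* exceeded that in *ME* by 3.78 ± 0.56 on the log2 scale (SE, adjusted p = 0.00292), or 13.8-fold, with a rise in all 4 *RiboTag* IM3h libraries and lower values in all 3 of *ME*. This held without any single library and under all 7 other settings. The change of *Dusp5* in *RiboTag* exceeded that in *ME* by 2.39 ± 0.53 (SE, adjusted p = 0.0339), or 5.23-fold. That difference passed in 4 of the 13 repeats that left out 1 library, and was lost without *RiboTag* IM3h library 3, *RiboTag* naïve library 2 or 3, or any of the 6 *ME* libraries (adjusted p = 0.0525 to 0.103), and under 1 of the 7 other settings (0.0618). The difference for *Dusp4* was 2.30 (adjusted p = 0.156) and did not pass. The remaining 7 genes did not pass either. Line and fraction cannot be told apart in this comparison. By the study's methods the total RNA is a share of the lysate taken before the immunoprecipitation, so at IM24h and IM72h, where both fractions have the same line, libraries of the fractions may come from the same mice. The tables do not tie them, and the tests between fractions treat them as independent.

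**Figure D3:**
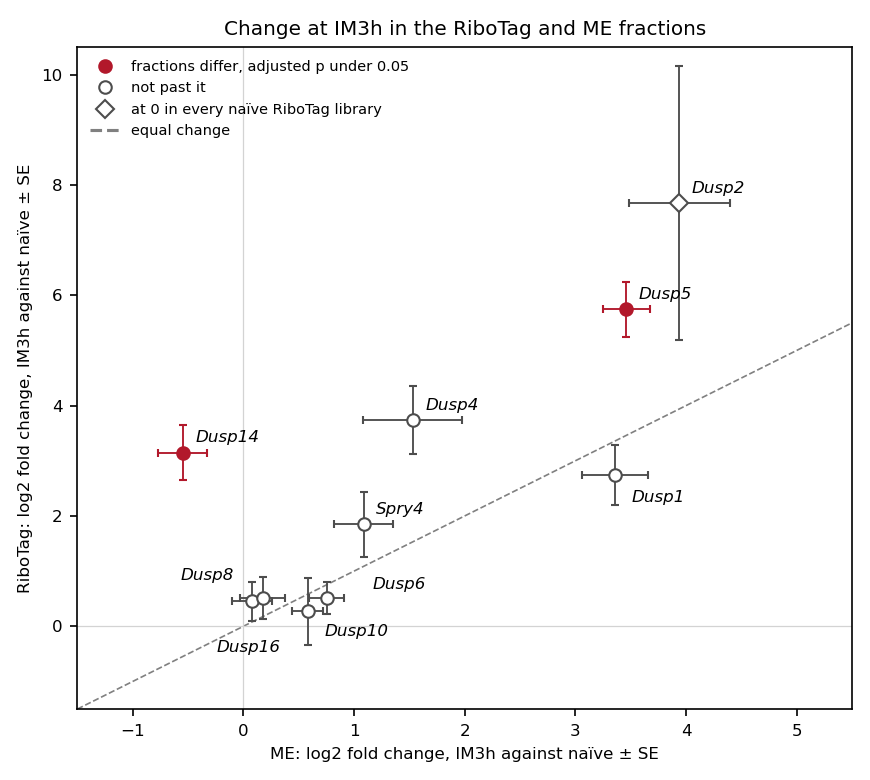
Log2 fold change at IM3h against naïve mice in *ME* (x axis) and in *RiboTag* (y axis) for each of the 10 genes, with bars for SE, a dashed line of equal change, and red filled points where the interaction had an adjusted p under 0.05. *Dusp14* (−0.55 in *ME*, 3.15 in *RiboTag*) and *Dusp5* (3.46 and 5.74) are the red points above the line.

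At IM24h *Dusp5* stayed high in *RiboTag* and the other genes tested did not pass. Glial markers summed to 799 to 1040 CPM in these libraries, and smooth muscle markers to 1520 to 4250 CPM with 3 of 8 lower. Macrophage markers summed to 220 to 342 CPM, with 0 of 9 called by edgeR. Those of proliferating cells summed to 76.3 to 251 CPM against 26.0 to 34.3 CPM in naïve mice, with 1 of 5 higher. The part of these cells was not tested. *Dusp5* was at 41.6, 175, 254.5 and 129.8 CPM, against 2.26 to 8.51 CPM in naïve mice. All 4 libraries were above all naïve ones, and it was the 1 gene of the 9 tested that rose (log2 4.90 ± 0.70, SE, adjusted p = 0.0206) and 0 fell, where 0.366% of 15304 tested genes rose and 0.131% fell. Without overlap, 6.59% of all tested genes were higher. The call was lost without IM24h library 2 (adjusted p = 0.096) or 4 (0.119), without naïve library 2 (0.136) or 3 (0.145), and under scaling by library totals (0.127) or by reference genes (0.186), with a log2 fold change of 4.54 to 4.96 without 1 of these libraries. The other 8 had log2 fold changes from −0.78 to 0.45. *Dusp2* was not tested, as the IM24h table, which lists transcripts with a total of at least 10, does not list it.
*Dusp1* had 7.55, 18.0, 0.444 and 20.2 CPM and *Dusp4* 2.52, 0, 0 and 3.82 CPM at IM24h, values that overlapped the naïve ones. *Dusp14* had 9.95, 0.818, 0 and 0 CPM, with library 1 far above the rest. *Spry4* had 7.43, 2.45, 0.444 and 1.34 CPM, also within reach of the naïve libraries. Against IM3h, *Dusp1*, *Dusp4* and *Dusp14* were lower at IM24h without overlap, as were 11.6% of all tested genes. edgeR called 0 of the 9 genes between IM24h and IM3h, where 0.965% of all genes rose and 0.937% fell, with 2 at an unadjusted p under 0.05, and DESeq2 called *Dusp1* and *Dusp4* lower, with 3.97% of all genes. The edgeR log2 fold changes were −2.71 for *Dusp1* (adjusted p = 0.0923), −3.43 for *Dusp4* (0.16) and −2.77 for *Dusp14* (0.326), and −0.74 for *Dusp5* (0.511).

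In *ME* at IM24h *Dusp1* and *Dusp5* were still high, *Dusp6* was modestly higher and *Dusp10* was lower than in naïve mice. Of the 10 genes 3 rose and 1 fell, where 15.6% of 16328 genes rose and 13.4% fell, and *Dusp2* and *Dusp4* passed the filter only through the IM24h libraries. Without overlap 3 were higher (*Dusp1*, *Dusp2* and *Dusp5*) and 1 lower (*Dusp10*), where 20.1% of all genes were higher and 20.8% lower. *Dusp1* was at 147, 135, 152 and 58.7 CPM (log2 2.34 ± 0.31, SE, adjusted p = 0.000552). *Dusp5* was at 73.0, 65.0, 72.5 and 26.8 CPM (log2 2.20 ± 0.34, SE, adjusted p = 0.00113). In both genes library 4 was the lowest and still above all naïve libraries. *Dusp6* was at 63.7, 79.5, 65.4 and 40.9 CPM, where library 4 fell among the naïve values (log2 0.66 ± 0.22, SE, adjusted p = 0.043). That call held only without IM24h library 4, since leaving out any of the other 6 gave an adjusted p of 0.0788 to 0.183, and it was lost with reference genes (0.508) and without the filter (0.0562).
*Dusp10*, a phosphatase of JNK and p38, was at 13, 8.41, 8.74 and 11.3 CPM against 17.2 to 19.6 CPM in naïve mice, and fell without overlap (log2 −0.84 ± 0.23, SE, adjusted p = 0.0222). It was lost without IM24h library 3 (0.0535) or without naïve library 1 (0.0842), 2 (0.0529) or 3 (0.0962), and with library totals (0.566). *Dusp2*, with 0.942, 1.30, 4.37 and 1.61 CPM, lay above all naïve libraries but did not pass (log2 2.17 ± 0.86, SE, adjusted p = 0.0835), except with library totals (0.0235) or all 4 groups in 1 fit (0.0109). *Dusp16* passed without IM24h library 4 (log2 0.83, adjusted p = 0.0255, against 0.63 and 0.176 with it). The interaction of fraction and treatment at IM24h passed for 0 of 9 genes by edgeR, where it passed for 0.537% of all genes, with 2 at an unadjusted p under 0.05, and DESeq2 called 1, *Dusp5*, and 4.84% of all genes. Smooth muscle markers summed to 23100 to 24700 CPM in naïve *ME* and to 3430 to 11300 CPM at IM24h, macrophage markers to 608 to 1230 CPM with 7 of 10 higher, and neutrophil markers to 57.9 to 230.0 CPM with 6 of 6 higher. Markers of proliferating cells summed to 111 to 171 CPM against 25.2 to 40.5 CPM, with 4 of 6 higher. Of the 6 neutrophil genes, 5 passed the filter only through the IM24h libraries, as did 1 of the 6 of proliferating cells. These counts are a description.

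At IM72h the *RiboTag* libraries held few counts of these genes, with *Dusp5* seen in all 4 and *Spry4* in 0 of them. Of the 8 genes tested 0 were called higher and 1 lower, *Spry4*, where 1.05% of 13572 genes rose and 15.1% fell. Of these 8, 6 passed the filter only through the naïve libraries, among them *Spry4*, so its call is a description and no support for a fall. *Spry4* was at 0 in all 4 IM72h libraries against 1.78 to 4.74 CPM in naïve mice, at least 1.71-fold lower against the floor of 3 counts per library (adjusted p = 0.00846). Naïve library 1, at 1.78 CPM, lay within the 1.32 to 2.88 CPM that 3 counts stand for in the IM72h libraries, so the zeros do not resolve a difference from it. Of all genes tested, 9.62% were likewise at 0 in all 4 IM72h libraries. The call was lost with DESeq2 (0.124), without the filter (0.15) or with all 4 groups in 1 fit (0.0617). *Dusp5* was at 104, 56.7, 4.801 and 73.3 CPM, with library 3 within the naïve range and the others above it (log2 3.56 ± 1.28, SE, adjusted p = 0.0993). Without library 3 it passed (log2 3.86, adjusted p = 0.03).
*Dusp1* was seen in library 2 only, at 47.9 CPM, and so was *Dusp14*, at 56.7 CPM, *Dusp10*, at 10.1 CPM, and *Dusp2*, at 35.6 CPM. In the other 3 libraries these 4 genes were at 0. *Dusp16* was at 0, 0, 7.68 and 1.23 CPM, below all naïve libraries without passing (log2 −2.46, adjusted p = 0.589), and 2 genes, *Dusp16* and *Spry4*, were lower without overlap, as were 28.0% of all tested genes. Without library 2, 4 genes were called lower, *Dusp1*, *Dusp10*, *Dusp14* and *Spry4*, where 27.2% of all genes were. Between IM72h and IM24h edgeR called 0 of the 5 genes tested, with 0 at an unadjusted p under 0.05 and 0 by DESeq2, where 0.0% of all 9344 genes rose and 0.0% fell. *Dusp2* and *Dusp4* did not pass the filter on low counts against naïve mice.

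In *ME* at IM72h *Dusp6* had its highest level of the time course, *Dusp1* was still above naïve mice and *Spry4*, *Dusp8* and *Dusp10* were below. Of the 8 genes tested 3 rose and 3 fell, where 29.3% of 16592 genes rose and 28.3% fell, and all 6 calls held without any single library. The 3 higher and 3 lower genes did not overlap with naïve libraries, as was so for 31.1% of all genes on the higher side and 27.7% on the lower side. *Dusp6* was at 130.4, 122, 112 and 71.8 CPM against 34.5 to 42.0 CPM in naïve mice. All 4 libraries were above all naïve ones, and the rise was 2.72-fold (log2 1.45 ± 0.20, SE, adjusted p = 0.000105). *Dusp1* was at 71.6, 39.7, 49.4 and 52.5 CPM (log2 1.10 ± 0.19, SE, adjusted p = 0.000585). *Dusp16* was at 15.6, 16.3, 17.0 and 15.2 CPM against 9.26 to 11.7 CPM (log2 0.62 ± 0.15, SE, adjusted p = 0.00496). The *Dusp16* values were close to each other and all above the naïve ones.
*Spry4* was at 3.78, 2.48, 3.47 and 2.02 CPM against 7.86 to 11.8 CPM in naïve mice, 3.18-fold lower (log2 −1.67 ± 0.28, SE, adjusted p = 0.000426). *Dusp10* was at 10.2, 9.11, 10.2 and 8.84 CPM (log2 −0.98 ± 0.14, SE, adjusted p = 0.000178) and *Dusp8* at 13.5, 14.5, 16.2 and 16.6 CPM (log2 −0.78 ± 0.17, SE, adjusted p = 0.00222). These 3 genes were lower in every IM72h library than in any naïve one. With library totals *Dusp8* (adjusted p = 0.404) and *Dusp10* (0.0793) did not pass, and *Dusp16* did not with reference genes (0.956) or all 4 groups in 1 fit (0.0523). *Dusp5* was back at 11.9, 6.85, 10.6 and 9.82 CPM, overlapping the 10.53 to 15.5 CPM of naïve mice (log2 −0.42, adjusted p = 0.118). With reference genes it passed as lower (−1.03, adjusted p = 0.0018). *Dusp14* did not pass (log2 0.10, adjusted p = 0.639), and it was called in opposite directions by other scalings, higher with library totals (0.69, adjusted p = 0.0119) and lower with reference genes (−0.52, adjusted p = 0.039). *Dusp2*, at 0.679 to 0.925 CPM, and *Dusp4*, at 0.151 to 0.753 CPM, did not pass the filter. Macrophage markers summed to 1420 to 1680 CPM at IM72h against 237 to 271 CPM in naïve *ME*, with all 10 higher. Neutrophil markers summed to 41.0 to 77.2 CPM (6 of 6 higher), lymphocyte markers to 15.2 to 17.8 CPM against 4.48 to 7.10 CPM (5 of 6 higher), those of proliferating cells to 272 to 334 CPM (6 of 6 higher) and those of interstitial cells of Cajal to 230 to 257 CPM against 442 to 460 CPM (4 of 5 lower). All 6 lymphocyte genes and 5 of the 6 neutrophil genes passed the filter only through the IM72h libraries. So did 1 of the 6 of proliferating cells, and these counts are a description. Glial markers summed to 231 to 390 CPM against 162 to 188 CPM (5 of 10 higher, 2 lower), smooth muscle markers to 13200 to 21600 CPM (4 of 8 lower), mesothelium markers to 42.0 to 105 CPM (4 of 6 lower), endothelium markers to 79.3 to 96.0 CPM (4 of 7 higher) and fibroblast markers to 4470 to 5310 CPM (4 of 8 higher, 1 lower). Of the glial genes, 1 passed the filter only through the naïve libraries and 1 only through those of IM72h. Of the fibroblast genes, 1 passed only through those of IM72h. The part of these cells was not tested. At IM72h the interaction passed for *Dusp5* (*RiboTag* above *ME* by 3.75 ± 1.13, SE, adjusted p = 0.0274) and *Spry4* (adjusted p = 0.00953), 2 of 9 genes, where 23.3% of all genes passed. As *Spry4* was at 0 in *RiboTag*, its fall there is known only as at least 1.71-fold, which the 3.18-fold fall in *ME* exceeds, and a difference between the fractions is not resolved. The *Dusp5* difference was lost without *RiboTag* naïve library 2 or 3, *ME* IM72h library 2, 3 or 4 or any naïve *ME* library (adjusted p = 0.0512 to 0.0776) and with library totals (0.219), and *Dusp16* passed without *RiboTag* IM72h library 2 (0.0428) or 3 (0.0014).

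Between neighbouring times in *ME*, *Dusp5* and *Spry4* fell at both steps. These comparisons share libraries with those above and are given side by side with them. From IM3h to IM24h, *Dusp5* fell by 1.16 on the log2 scale (adjusted p = 0.0193), *Dusp10* by 1.33 (0.00195) and *Spry4* by 1.30 (0.00573), 3 of 10 genes, and 0 rose, where 13.4% of all genes fell and 14.2% rose. The fall of *Dusp5* was lost without IM3h library 2 (0.0864) or 3 (0.0619), and with library totals none of the 3 passed (0.372, 0.0793 and 0.16). From IM24h to IM72h, *Dusp5* fell by 2.63 (adjusted p = 0.000132), *Dusp4* by 1.82 (0.0428), *Spry4* by 1.37 (0.00453) and *Dusp1* by 1.24 (0.00574), and *Dusp6* rose by 0.77 (0.0213), where 19.9% of all genes fell and 18.6% rose. The fall of *Dusp4* was lost without any library except IM24h library 2 (adjusted p = 0.0503 to 0.131), with reference genes (0.0536) and without the filter (0.0826), and the rise of *Dusp6* without IM24h library 3 (0.052) or IM72h library 1 (0.0656) or 2 (0.0567). *Dusp2* passed from IM3h to IM24h without IM24h library 3 (log2 −2.33, adjusted p = 0.01) and from IM24h to IM72h without IM24h library 1 (−1.64, 0.0416). From IM3h to IM24h *Dusp16* passed without IM24h library 4 (0.76, 0.0393). IM24h and IM72h libraries have the same line in their labels, and IM3h has another. The numbers in the library names of IM3h, IM24h and IM72h *ME* fall into separate runs, so run and time cannot be told apart at either step.

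The genes of the same pathway that are not among the 10 were counted from lists chosen with earlier results known. In *RiboTag* at IM3h, ERK output genes, transcripts that follow ERK activity, rose in 8 of 11 tested and fell in 0, with a median log2 fold change of 2.81. Of the 11, *Fosl1*, *Myc* and *Epha2* passed the filter only through the IM3h libraries, as did the MAP kinase kinase kinases *Map3k6*, *Map3k8* and *Map3k13*, and the MAP kinase kinase *Map2k6* only through the naïve ones, so these counts describe the genes tested. *Myc*, a growth factor-induced transcription factor, was at 0 to 1.66 CPM in naïve libraries and at 28.5 to 45.8 CPM at IM3h, and rose by 5.98 ± 0.82 (log2, SE, adjusted p = 0.000734) and the ephrin receptor *Epha2* by 4.38 ± 1.19 (SE, adjusted p = 0.0304), from 0 to 1.54 CPM in naïve libraries to 5.70 to 16.3 CPM. Other feedback inhibitors rose in 5 of 13 and fell in 0, among them *Errfi1*, an inhibitor of the EGF receptor, by 4.63 ± 0.45 (SE, adjusted p = 8.36e-05) and *Spred2*, an inhibitor of RAS-ERK signaling, by 3.34 ± 0.34 (SE, adjusted p = 0.000113). *Spred2* and *Spry2*, which rose by 2.81, stand on both of these lists, and *Spred2*, *Errfi1*, *Map3k6*, *Map3k8* and *Map2k3* are on the gliosis list of the study. The study also names *Fosl*, given without a number, among genes that entered that list because they were seen only at IM3h. Other dual-specificity phosphatases rose in 1 of 11 (*Dusp7*, 2.25) and fell in 1 (*Dusp26*, −1.38). Of these 11, 1 passed the filter only through the naïve libraries and 1 only through those of IM3h.
The kinases of the pathway were counted in the same way. MAP kinases rose in 1 of 13 (*Mapk6*, 2.80), MAP kinase kinases rose in 1 (*Map2k3*, 3.21) and fell in 1 of 7 (*Map2k6*, from 2.60 to 5.21 CPM to 0 to 0.232 CPM), MAP kinase kinase kinases rose in 4 of 19 (*Map3k8* by 4.36 and *Map3k6* by 3.24), and kinases downstream of MAP kinases in 0 of 9 by edgeR, with 0 at an unadjusted p under 0.05 and 0 by DESeq2. Of all genes 8.86% rose and 4.44% fell. In *ME* at IM3h, 7 of 11 ERK output genes rose and 1 fell, with *Fosl1* and *Myc* tested only through the IM3h libraries, 6 of 13 other feedback inhibitors rose and 1 fell, with *Errfi1* at 4.34 and *Spry2* at 2.52, and 5 of 9 downstream kinases rose, with *Mapkapk3* at 1.51, where 19.3% of all genes rose and 13.4% fell. Other dual-specificity phosphatases in *ME* rose in 3 of 12 (*Dusp7*, 1.46) and fell in 3 (*Dusp27*, −2.64, and *Dusp23*, −1.66). Of these 12, 2 passed the filter only through the naïve libraries. The interaction at IM3h passed for *Spred2* (*RiboTag* above *ME* by 2.66, adjusted p = 0.00264) and *Map3k4* (1.62, adjusted p = 0.0183) in these lists, for 1 of 13 other feedback inhibitors, 1 of 11 ERK output genes, 1 of 19 MAP kinase kinase kinases and 0 in each other list, where 1.66% of all genes passed. At IM24h edgeR called 0 genes of the 7 lists in *RiboTag*, with 0 to 2 per list at an unadjusted p under 0.05, and DESeq2 called 2 other feedback inhibitors lower and 1 ERK output gene higher, where edgeR called 0.366% of all genes higher and 0.131% lower and DESeq2 3.21% and 2.38%. In *ME* at that time 5 of 10 ERK output genes and 6 of 13 other feedback inhibitors rose and 1 of each fell, where 15.6% of all genes rose and 13.4% fell. Of these 10 ERK output genes, 2 were tested only through the IM24h libraries. In *ME* at IM72h, 5 of 11 ERK output genes rose, led by the ETS factors *Etv4* (4.61) and *Etv5* (1.27), and 3 fell, and 3 of 13 other feedback inhibitors rose and 5 fell, where 29.3% of all genes rose and 28.3% fell. Of these 11 ERK output genes, 3 were tested only through the IM72h libraries, so their count describes the genes tested. In *RiboTag* at IM72h, 0 genes of these lists rose by edgeR or DESeq2, 5 of 13 MAP kinases and 3 of 13 other feedback inhibitors fell, and in each other list 0 or 1 fell, where 15.1% of all genes fell, and 10 of these 13 MAP kinases and 11 of these 13 inhibitors were tested only through the naïve libraries.

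**Figure D4:**
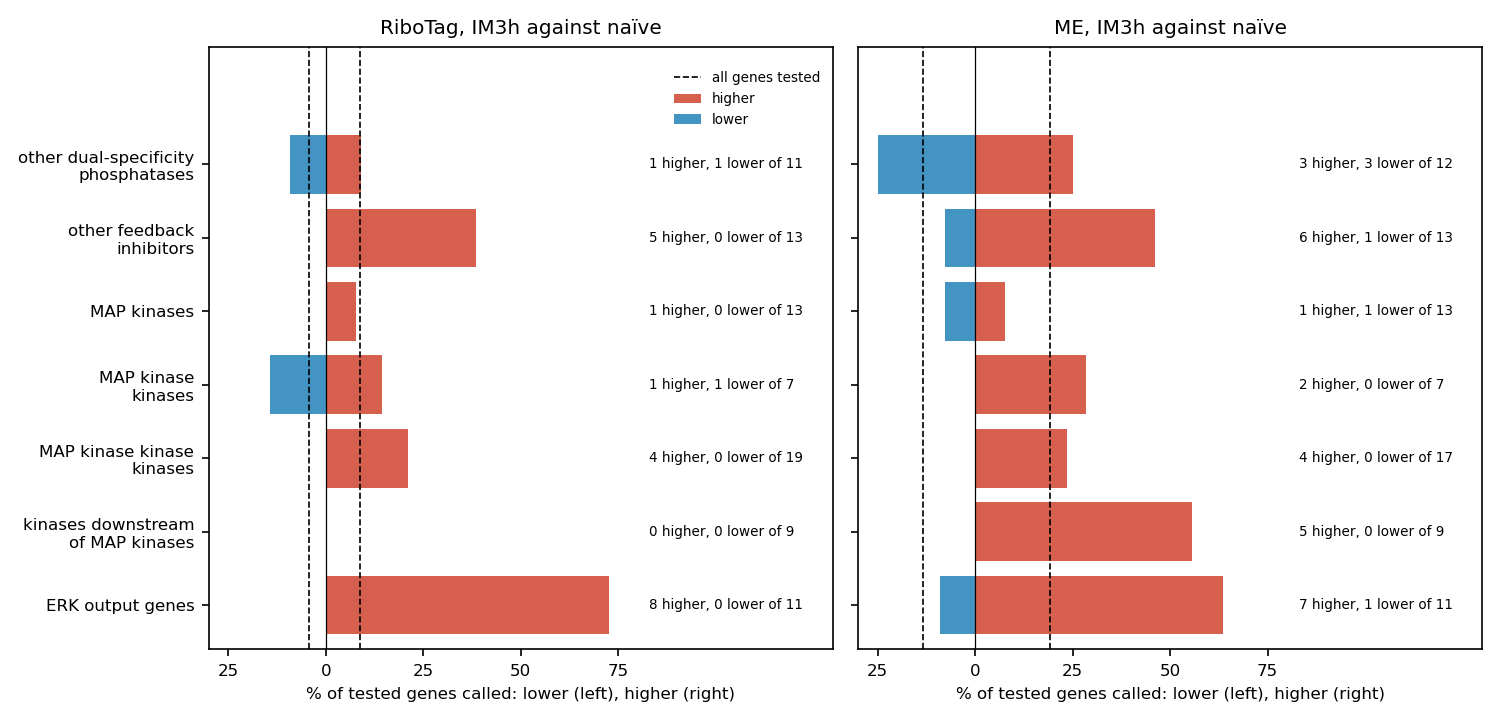
Percent of tested genes called higher or lower at IM3h (x axis) in each pathway list (y axis), for *RiboTag* and *ME*, with the dashed line at the percent of all tested genes. ERK output genes (8 of 11 higher in *RiboTag*, 7 of 11 in *ME*) reach farthest, and kinases downstream of MAP kinases have 0 calls of 9 in *RiboTag*.

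At the threshold of the study, over 2-fold with an unadjusted p under 0.05, 6 of the 10 genes were higher in *RiboTag* at IM3h, the 4 called ones, *Dusp2* and *Spry4*, where 11.8% of all genes were, and *Dusp2* and *Dusp4* were tested only through the IM3h libraries. In *RiboTag* at IM72h 1 was higher (*Dusp5*), where 3.1% of all genes were, and from IM3h to IM24h 2 were lower (*Dusp1* and *Dusp4*), where 7.24% of all genes were. In *ME* at IM24h 0 of the 10 were lower, with *Dusp10* under the fold limit, where 11.3% of all genes were, at IM72h 1 was lower (*Spry4*), where 15.6% were, and from IM24h to IM72h 0 were higher, where 12.7% were. The interaction at IM24h passed for 2 (*Dusp1* and *Dusp5*), where 13.1% of all genes passed, and naïve *RiboTag* was lower than naïve *ME* in 2 (*Dusp14* and *Spry4*), where 11.5% were.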

How the data were processed

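RNA from the small bowel *ME* was sequenced as *RiboTag* mRNA and total RNA. The authors made single-end 3′ end libraries, trimmed them with cutadapt, aligned them to mm10 with STAR and quantified transcripts in Partek Flow, as the study's methods and the submitters' processing notes say. The authors deposited estimated counts per transcript (*RiboTag*) and per transcript and gene (*ME*), without scaling for library size. Tables of the authors' own comparisons, with fold changes, p-values and group means, were not used. No transcript or gene with a total under 10 is in the tables.

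Libraries were grouped by the entry each table gives for them. Their names match no sample label, so library numbers follow the order of names, and 0 columns were left unused. The labels list 4 naïve *RiboTag* libraries and the tables hold 3, the same 3 for every time point, so comparisons with naïve mice share them. The numbers in the names fall into 3 separate runs, naïve and IM3h *ME* in one, IM72h *ME* in another, and IM24h *ME* with all *RiboTag* libraries in the last. What a run stands for is not given in the sources used here, and in *ME* it cannot be told apart from the time at IM24h and IM72h. Between *RiboTag* and *ME* in naïve mice and at IM3h, run and fraction cannot be told apart. The labels do not tie libraries to separate experiments, and p-values measure the spread between these libraries.

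Counts were summed to genes by symbol, rounded, and tested with edgeR 4.0.16 (R 4.3.3, limma 3.58.1; TMM, filterByExpr, quasi-likelihood test, two-sided) in 14 comparisons of 2 groups each, or of 4 groups for the interaction of fraction and treatment. A gene was called at a Benjamini-Hochberg adjusted p under 0.05 over all genes tested, and every adjusted p given is from this test unless DESeq2 (1.42.0) is named. SE was derived from the fold change and its F statistic. CPM are TMM-scaled, with all libraries of a fraction scaled together. Alternatives were DESeq2, RLE scaling, library totals, 3 reference genes (*Actb*, *Hsp90ab1* and *Rplp1*), AY036118 left out, no filter, all 4 groups of a fraction in 1 fit, the study's threshold (unadjusted p under 0.05 and over 2-fold) and, for *ME*, the transcript table. The script was tested on simulated data. Floors cover counting error only.

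All 10 genes are named in every comparison, and from each pathway list at most the 3 called genes with the greatest absolute log2 fold change. The gene most alike in pattern was the one with the highest Pearson correlation of log2 CPM (prior count 2). The genes and lists were chosen with earlier results of these data known. Promoters are RefSeq's (GRCm38.p6) and coordinates GENCODE's for mm10. No proteins were analysed here.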

Additional observations from a re-analysis of the deposited data

Results flagged for a closer look

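The levels of the 10 genes were examined in 50 sets of 4 libraries for a library far from the other 3, a rule that chance meets in about 1 in 20 sets of normally spread values. There were 7, all in *RiboTag* and 6 of them at IM72h, where libraries held the fewest counts. That rate does not apply to these sparse sets, since a gene at 0 in 3 of 4 libraries always meets the rule. At IM72h library 2 stood above the rest with 47.9 CPM of *Dusp1*, 35.6 CPM of *Dusp2*, 10.1 CPM of *Dusp10* and 56.7 CPM of *Dusp14*, while the other 3 libraries were at 0. At IM72h library 1 had 9.03 CPM of *Dusp4* and library 3 had 7.68 CPM of *Dusp16*. At IM24h library 1 had 9.95 CPM of *Dusp14* against 0 to 0.818 CPM in the others. The glial markers summed to 190 to 1510 CPM over these IM72h libraries and AY036118 took 58.0% to 80.1% of their counts, and the part of either in these values was not tested.

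The interaction term passed for 2 of 10 genes at IM3h, where 1.66% of all genes passed, and for 2 of 9 at IM72h, a share close to the 23.3% of all genes. At IM3h the log2 fold change in *RiboTag* exceeded that in *ME* by 3.78 for *Dusp14*, with higher values in 4 of 4 *RiboTag* libraries and lower values in 3 of 3 *ME* libraries, and by 2.39 for *Dusp5*, which rose in every library of both fractions. At IM72h the difference was 3.75 for *Dusp5*. For *Spry4* the fitted difference of −6.22 depends on the prior count, since the gene was at 0 in all 4 *RiboTag* IM72h libraries. Its fall there is known only as at least 1.71-fold against 3.18-fold in *ME*, so these values do not show a difference. Over all genes the median difference at IM72h was −0.98, and the *Dusp5* value is to be read against it.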

How the results depend on the processing

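No paired analysis was possible because the libraries in the tables carry no replicate number. Fractions that may share mice at IM24h and IM72h were treated as independent. No gene called in a comparison changed direction under any setting run. For single genes, the other settings left 395 results on the same side of the threshold, moved 34 below it and 32 above it, and 10 values not called with TMM changed sign, and leaving out 1 library gave 371, 56, 10 and 5. Leaving out 1 library was not run for *RiboTag* IM24h against IM3h, *RiboTag* IM72h against IM24h and the interaction at IM24h. Scaling by library totals or reference genes shifts the all-gene median of log2 fold changes by up to 2.07 (interaction at IM72h, −2.07 with library totals), and directions are relative to that median.

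With DESeq2, genes called higher in *RiboTag* at IM72h went from 0 to 1 (*Dusp5*) and lower from 1 to 0, lower genes from IM3h to IM24h went from 0 to 2 in *RiboTag* and from 3 to 5 in *ME*, and the interaction at IM24h from 0 to 1. Of all genes, DESeq2 called 3.26% higher and 13.8% lower in *RiboTag* at IM72h, 3.97% and 16.1% lower from IM3h to IM24h in *RiboTag* and *ME*, and 4.84% by the interaction. With all 4 groups in 1 fit, genes higher in *RiboTag* at IM3h went from 4 to 1 (*Dusp5*), *RiboTag* at IM72h had 1 higher and 0 lower, *ME* at IM24h had 2 lower against 1, and *ME* from IM3h to IM24h 6 lower against 3, where 0.123% (*RiboTag* IM3h higher), 0.892% and 6.12% (*RiboTag* IM72h higher and lower), 17.9% and 18.7% (both *ME* lower) of all genes were called. With library totals, *RiboTag* at IM24h had 0 higher against 1, *ME* at IM3h 4 higher against 7 and 1 lower (*Dusp14*) against 0, *ME* at IM24h 5 higher against 3 and 0 lower against 1, *ME* at IM72h 1 lower against 3, *ME* from IM3h to IM24h 3 higher and 0 lower against 0 and 3, and naïve *RiboTag* against *ME* 2 higher (*Dusp6* and *Dusp16*) and 0 lower against 0 and 1. Library totals called, of all genes, 1 in *RiboTag* at IM24h, 11.4% higher and 22.1% lower in *ME* at IM3h, 38.5% and 4.41% at IM24h, 11.8% lower at IM72h, 47.0% and 3.54% from IM3h to IM24h, and 35.1% and 3.1% in naïve *RiboTag* against *ME*, so these counts are to be read against shares far from those with TMM. With reference genes, *RiboTag* at IM24h had 0 higher, *ME* at IM3h 4 higher and 1 lower, *ME* at IM72h 5 lower against 3, and the interaction at IM3h 1 against 2, where of all genes 1, 10.3% and 35.0%, 48.1% and 0.221% were called. Without the filter, *RiboTag* at IM72h had 0 lower against 1 and *RiboTag* from IM3h to IM24h 1 lower against 0, with 0.0723% and 1.06% of all genes lower. Without AY036118, *RiboTag* at IM72h had 0 lower, since *Spry4* was not tested. With the study's threshold, the interaction at IM24h had 2, naïve *RiboTag* 2 lower against 1, *RiboTag* at IM72h 1 higher, *RiboTag* from IM3h to IM24h 2 lower, *ME* at IM24h 0 lower, *ME* from IM24h to IM72h 0 higher against 1 and *ME* at IM72h 1 lower against 3. Apart from the AY036118 case, the cause was not tested.

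Log2 fold changes not called with TMM that changed sign were *Dusp6* in *ME* from IM3h to IM24h, −0.028 without AY036118, −0.0247 with DESeq2 and with RLE scaling, −0.034 with all groups in 1 fit, −0.010 without the filter and −0.14 with reference genes, *Dusp8* with library totals, 0.30 from IM3h to IM24h and 0.14 at IM24h in *ME*, *Dusp5* in *ME* at IM72h with library totals, 0.19, and *Dusp14* in *ME* at IM72h with reference genes, −0.52, where it was called lower (adjusted p = 0.039) although library totals called it higher (0.69, adjusted p = 0.0119).

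Without 1 library, 4 to 6 genes were called higher in *RiboTag* at IM3h and 0 to 1 at IM24h. At IM72h 0 to 1 were higher and 1 to 4 lower. In *ME* 4 to 7 were higher at IM3h, 2 to 4 higher and 0 to 1 lower at IM24h, 0 to 1 higher and 2 to 4 lower from IM3h to IM24h, and 0 to 1 higher and 3 to 4 lower from IM24h to IM72h. The interaction passed for 1 to 2 genes at IM3h and 1 to 6 at IM72h, and 0 to 2 genes were lower in naïve *RiboTag* than in *ME*. *Dusp6* in *ME* from IM3h to IM24h ranged from −0.16 to 0.16. Depth limits the *RiboTag* libraries at IM72h most, where 3 counts in a library stand for 1.32 to 2.88 CPM.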

Other observations

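For each phosphatase gene and *Spry4*, the gene with the most similar level across libraries was taken in each fraction separately. A single gene is picked from many, so a different one in each fraction says nothing about the phosphatases. Over the 14 *ME* libraries and among 17909 genes, the pattern of *Dusp5* was most like that of *Nfe2l2*, a transcription factor of the oxidative stress response (Pearson r = 0.981), *Dusp1* was most like *Noct* (0.968), *Dusp2* like *Kcne4* (0.949), *Dusp4* like *Egfros* (0.928), *Dusp6* like *Aak1* (0.973), *Dusp8* like the potassium channel gene *Kcnma1* (0.925), *Dusp10* like the lactate transporter gene *Slc16a1* (0.97), *Dusp14* like *Fam214a* (0.897), *Dusp16* like *Tigd5* (0.918) and *Spry4* like *Kdm3b* (0.968). Over the 15 *RiboTag* libraries and among 17920 genes, *Dusp5* was most like *S100a6* (0.915), *Dusp14* like *Fndc4* (0.948), *Dusp4* like *Grrp1* (0.953), *Dusp1* like *Zfp655* (0.976), *Spry4* like 0610009E02Rik (0.965), *Dusp2* like the cyclin gene *Ccne1* (0.923), *Dusp6* like *Stx7* (0.958), *Dusp8* like *Flii* (0.98), *Dusp10* like *Unc13b* (0.97) and *Dusp16* like *Nol12* (0.952). These values describe libraries that share treatment, depth and composition and carry no test.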
